A study of Mus musculus with 8 samples.

Results

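Krt7, Krt19, Krt23, Epcam, Sox9, Prom1, Cldn4 and Cldn7, 8 markers of bile duct cells and of ductular reactions, were followed in the livers of mice given an adeno-associated viral vector. They were taken by symbol from a count table of 31910 genes, which lists all 8. The 4 SA libraries came from livers labelled with the agent AAV2/9-SA and the 4 Ctrl libraries from livers labelled AAV2/9-Ctrl. The labels do not spell out SA. By its title, the series is about fatty liver disease with inflammation (NASH) and a tetramerized bacterial protein that can bind acetyl-CoA carboxylase. Its design text gives 4.8e10 vector genomes per mouse by tail vein after 7 weeks of feeding. Several feeding schemes are described there: chow, 24 weeks on a diet rich in fat, and 16 weeks on one rich in fat and cholesterol with sugared water. The labels of these libraries name no diet, strain, sex or age, nor the promoter that drives the vector's insert, and they do not say that each library is 1 animal, so the p-values below measure the spread between libraries.

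Cholangiocytes line the bile ducts, adjust the bile that hepatocytes secrete and make up a small part of the liver's cells. In chronic injury, small ductules of biliary and progenitor-like epithelium spread from the portal tract into the lobule, a response called the ductular reaction, which in steatohepatitis accompanies scarring. Keratins are the intermediate filaments of these cells: Krt7 pairs, as a type II keratin, with type I keratins such as Krt19, and hepatocytes normally use Krt8 and Krt18. Epcam is an adhesion molecule of biliary and progenitor cells, and Prom1 is the membrane protein CD133. Sox9 is a transcription factor of biliary cells that some hepatocytes also express. Cldn4 and Cldn7 are tight junction proteins of epithelia. In bulk liver RNA, fewer cells of a type and less RNA per cell cannot be told apart.

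RefSeq promoters in build GRCm38.p6 matched 6 of the 8 genes, with 2 promoters each for Prom1 and Cldn7. Krt23, Epcam and Prom1 are shown because the levels of Epcam and Prom1 varied together over the libraries, while Krt23, the most abundant of the 3 keratins among the 8 genes, had another order. Each sequence runs 5′ to 3′ on the strand of its gene and covers the 250 bases before the transcript start. Capitals mark matches, on either strand, to the TEAD core CATTCC, the RBPJ core TGGGAA (Notch pathway), the SOX core ACAATG or the TATA box TATAAA.
Krt23, chr11:99493121-99493370, minus strand: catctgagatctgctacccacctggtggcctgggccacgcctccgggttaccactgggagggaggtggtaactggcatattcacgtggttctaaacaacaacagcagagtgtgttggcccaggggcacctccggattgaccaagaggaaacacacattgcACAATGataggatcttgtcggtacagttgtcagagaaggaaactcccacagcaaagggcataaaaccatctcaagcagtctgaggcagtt
Epcam, chr17:87635729-87635978, plus strand: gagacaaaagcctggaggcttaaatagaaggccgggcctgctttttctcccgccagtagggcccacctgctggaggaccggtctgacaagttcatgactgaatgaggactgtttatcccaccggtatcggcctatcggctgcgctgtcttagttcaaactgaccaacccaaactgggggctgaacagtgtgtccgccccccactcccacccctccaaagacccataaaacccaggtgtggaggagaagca
Prom1, chr5:44101737-44101986, minus strand: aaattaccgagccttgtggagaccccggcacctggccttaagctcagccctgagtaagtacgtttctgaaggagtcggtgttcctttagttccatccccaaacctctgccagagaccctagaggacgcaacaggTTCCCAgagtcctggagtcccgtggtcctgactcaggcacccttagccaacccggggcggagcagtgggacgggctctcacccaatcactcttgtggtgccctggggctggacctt
The Krt23 sequence holds a SOX core that begins 90 bases before the start, and 10.7% of all 32817 promoter sequences of the same length hold that motif. The Prom1 sequence shown holds an RBPJ core, on the opposite strand, that begins 116 bases before the start, and 21.6% of all promoter sequences hold that motif. The other Prom1 promoter, which is not shown, and the Epcam sequence hold none of these motifs. A TEAD core is in 1 of the 8 promoter sequences of the matched genes, at Cldn7, against 12.6% of all. No TATA box of these letters is in any of the 8, against 12.4% of all. These are descriptions of letters in a window.

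Total counts were 14114145 to 28184001 in SA libraries, the highest being SA 4, and 14359368 to 15328093 in Ctrl libraries. Levels are given as CPM, counts per library size after TMM scaling. Mitochondrial transcripts took 4.18% to 4.87% of counts in SA libraries and 3.55% to 4.67% in Ctrl 1 to 3, against 9.23% in Ctrl 4. The labelled tissue carried its markers: the 16 hepatocyte genes listed summed to 88452 to 114209 CPM in SA libraries and 96668 to 126678 CPM in Ctrl libraries. In Ctrl 2, 6 of the 9 listed mesothelial markers that are not keratins were at 0 (Msln, Upk3b, Upk1b, Wt1, Lrrn4 and Bnc1). In the other 7 libraries at most 1 of them was at 0. Mesothelium covers the liver surface and shares Krt7 and Krt19 with bile ducts.

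Bile duct and ductular markers were mostly at lower levels in SA than in Ctrl livers, but the libraries of a group were spread widely. Summed over all 8 genes the level was 14.1 ± 2.75 CPM in SA and 25.8 ± 4.47 CPM in Ctrl libraries (SD, n = 4 each). The 4 SA sums lay between 11.8 and 17.6 CPM and the 4 Ctrl sums between 19.4 and 29.8 CPM. Much of that sum is Krt23: without it the other 7 genes summed to 9.78 ± 1.88 CPM in SA and 14.3 ± 4.30 CPM in Ctrl (SD, n = 4 each). Without Krt23 the groups overlapped, with SA 2 at 11.7 CPM and Ctrl 2 at 8.55 CPM. Of the 8 genes 7 had enough counts to be tested, 6 with a negative and 1 with a positive log2 fold change. The median log2 fold change of the 7 was -1.01, against -0.01 over all 12358 genes tested, of which 51.3% were negative.

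**Figure D1:**
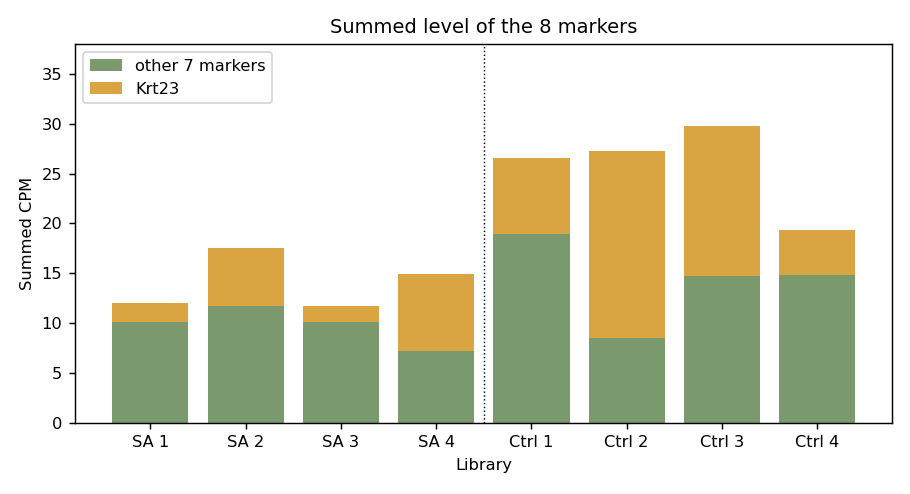
Summed CPM of the 8 markers in each library (bars from 0, SA libraries left of the dotted line, Ctrl libraries right of it), split into Krt23 and the other 7 genes. The 4 SA sums are at 11.8 to 17.6 CPM and the 4 Ctrl sums at 19.4 to 29.8 CPM, and Krt23 makes up 14.1% to 51.7% of the sum in SA and 23.3% to 68.7% in Ctrl.

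None of the 7 tested genes passed an adjusted p of 0.05 in edgeR's quasi-likelihood test, where 0.0162% of all genes passed. At an unadjusted p under 0.05, 3 of the 7 were lower in SA (Epcam, Krt23 and Krt19), against 3.29% of all genes. None was higher at that level, and 6.21% of all genes were either lower or higher. DESeq2, which tested all 8, called none of them and 0.346% of its genes. For none of the 8 genes did the SA and Ctrl libraries stand fully apart, which they did for 3.12% of all genes tested. The 8 genes were chosen with earlier results of these data known, so their counts are no independent evidence.

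Krt23, a type I keratin, was the marker with the most counts, 359 over the SA and 696 over the Ctrl libraries. Its level was 1.88, 5.88, 1.66 and 7.70 CPM in SA 1 to 4, against 7.57, 18.8, 15.1 and 4.52 CPM in Ctrl 1 to 4. SA 1 and SA 3 lay below every Ctrl library and Ctrl 2 and Ctrl 3 above every SA library, while the other 4 libraries overlapped. The mean was 4.28 ± 2.99 CPM in SA and 11.5 ± 6.57 CPM in Ctrl (SD, n = 4 each), which edgeR put at -1.39 ± 0.51 on the log2 scale (SE, adjusted p = 0.639, unadjusted p = 0.0175). The value stayed between -1.87 and -1.05 when each library was left out in turn, the first without SA 4 and the second without Ctrl 2.

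Krt23 is also the only one of the 8 genes in the authors' FPKM table, which holds 9265 rows. There it was at 1.53, 4.98, 1.54 and 6.79 FPKM in SA 1 to 4, against 6.82, 13.7, 15.7 and 3.41 FPKM in Ctrl 1 to 4. SA 1 and SA 3 were again the lowest and Ctrl 2 and Ctrl 3 the highest. On the log2(FPKM + 1) scale the difference was -1.205 (limma, adjusted p = 0.999, unadjusted p = 0.0540).

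Krt19, the type I keratin most used to mark bile ducts, was at 0.402, 1.13, 0.346 and 1.55 CPM in SA 1 to 4, against 4.37, 1.65, 1.45 and 1.15 CPM in Ctrl 1 to 4. SA 1, SA 2 and SA 3 lay below every Ctrl library, and SA 4 lay among them. Ctrl 1 held the highest Krt19 level, far from the other 3 Ctrl libraries. The mean was 0.857 ± 0.585 CPM in SA and 2.15 ± 1.49 CPM in Ctrl (SD, n = 4 each), which edgeR put at -1.26 ± 0.54 on the log2 scale (SE, adjusted p = 0.779, unadjusted p = 0.0379). Without Ctrl 1 it was -0.67 (unadjusted p = 0.224). Counts were low, 72 over the SA and 128 over the Ctrl libraries.

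Krt7, the type II partner keratin of biliary cells, did not show that pattern. It was at 0.738, 1.63, 0.484 and 0.832 CPM in SA 1 to 4, against 1.16, 0.345, 0.905 and 0.646 CPM in Ctrl 1 to 4. The highest library was SA 2 and the lowest Ctrl 2, the library in which most mesothelial markers were at 0. Krt19 was not low in Ctrl 2, at 1.65 CPM, above every SA library. The part of mesothelium in the Krt7 and Krt19 levels was not tested. The mean was 0.920 ± 0.493 CPM in SA and 0.764 ± 0.350 CPM in Ctrl (SD, n = 4 each), which edgeR put at 0.26 ± 0.48 on the log2 scale (SE, adjusted p = 0.996). It turned to -0.14 without SA 2, so no direction can be given for Krt7.

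**Figure D2:**
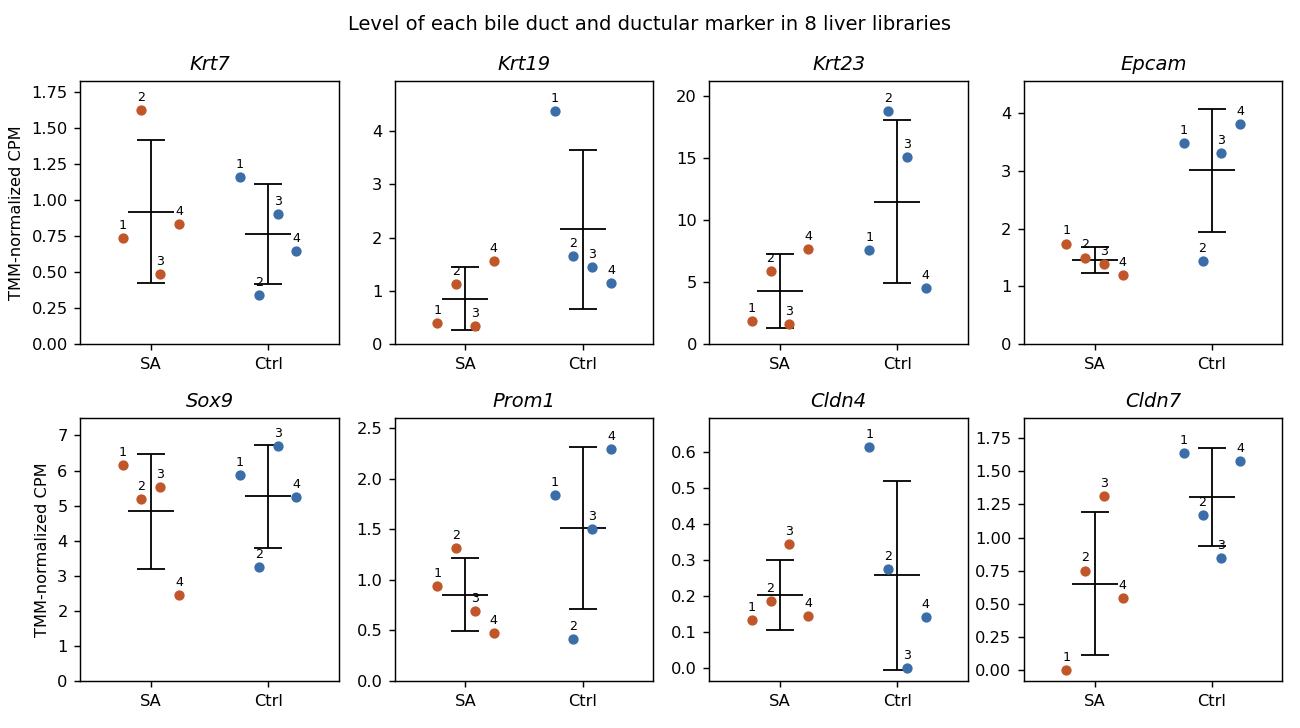
TMM-normalized CPM of each of the 8 markers, 1 panel per gene with its own linear axis; each point is a library with its replicate number, and the bars give the mean and SD of the 4 libraries of a group. Epcam in SA lies within 1.19 to 1.74 CPM with 3 Ctrl libraries above it, and in every panel the groups overlap.

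Epcam was the marker with the smallest p. It was at 1.74, 1.501, 1.38 and 1.19 CPM in SA 1 to 4, against 3.48, 1.45, 3.32 and 3.805 CPM in Ctrl 1 to 4. Ctrl 1, Ctrl 3 and Ctrl 4 lay above every SA library, and Ctrl 2 lay within the SA range. The mean was 1.46 ± 0.230 CPM in SA and 3.01 ± 1.06 CPM in Ctrl (SD, n = 4 each), which edgeR put at -1.06 ± 0.34 on the log2 scale (SE, adjusted p = 0.558, unadjusted p = 0.00866), which ranks 192 among the genes tested. The coefficient of variation was 15.8% over the SA libraries and 35.3% over the Ctrl libraries. In SA the variance between libraries was 0.734 times what counting error alone gives, and in Ctrl it was 5.42 times. Leaving out each library in turn gave -1.28 to -0.93.

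Prom1 varied with Epcam from library to library. It was at 0.939, 1.31, 0.692 and 0.470 CPM in SA 1 to 4, against 1.84, 0.414, 1.51 and 2.30 CPM in Ctrl 1 to 4. The 3 Ctrl libraries with high Epcam were also above every SA library in Prom1, and Ctrl 2 was the lowest library of all. The mean was 0.854 ± 0.362 CPM in SA and 1.52 ± 0.803 CPM in Ctrl (SD, n = 4 each), which edgeR put at -0.85 ± 0.50 on the log2 scale (SE, adjusted p = 0.939, unadjusted p = 0.113). Leaving out each library in turn gave -1.16 (without Ctrl 2, unadjusted p = 0.0166) to -0.59 (without Ctrl 4, unadjusted p = 0.293).

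Sox9, the transcription factor, was at 6.17, 5.19, 5.53 and 2.46 CPM in SA 1 to 4, against 5.87, 3.24, 6.70 and 5.24 CPM in Ctrl 1 to 4. SA 4 was the lowest library and Ctrl 2 the next. The mean was 4.84 ± 1.64 CPM in SA and 5.26 ± 1.47 CPM in Ctrl (SD, n = 4 each), which edgeR put at -0.14 ± 0.31 on the log2 scale (SE, adjusted p = 0.996). The sign changed without SA 4 (0.0902) and without Ctrl 3 (0.0042), so Sox9 has no direction here, at 323 SA and 317 Ctrl counts.

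The tight junction genes had low counts, for Cldn7 46 over the SA and 77 over the Ctrl libraries. Cldn7 was at 0, 0.751, 1.31 and 0.542 CPM in SA 1 to 4, against 1.64, 1.17, 0.845 and 1.58 CPM in Ctrl 1 to 4. The 0 in SA 1 allows up to 0.201 CPM, the level of 3 counts in that library, for counting error only. SA 1, SA 2 and SA 4 lay below every Ctrl library, and SA 3 lay among them. The mean was 0.652 ± 0.543 CPM in SA and 1.31 ± 0.372 CPM in Ctrl (SD, n = 4 each), which edgeR put at -1.01 ± 0.62 on the log2 scale (SE, adjusted p = 0.954), with -0.62 without SA 1 and -1.53 without SA 3.

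Cldn4 had 14 counts over the SA and 15 over the Ctrl libraries and was below the count filter of the main edgeR test. Its level was 0.134, 0.188, 0.346 and 0.145 CPM in SA 1 to 4, against 0.614, 0.276, 0 and 0.144 CPM in Ctrl 1 to 4. The 0 in Ctrl 3 allows up to 0.181 CPM. All SA libraries lay within the Ctrl range, and a difference in Cldn4 was not detectable at this depth. DESeq2 gave a log2 fold change of -0.37 (adjusted p = 0.998), and edgeR without the count filter -0.35 (adjusted p = 0.978).

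**Figure D3:**
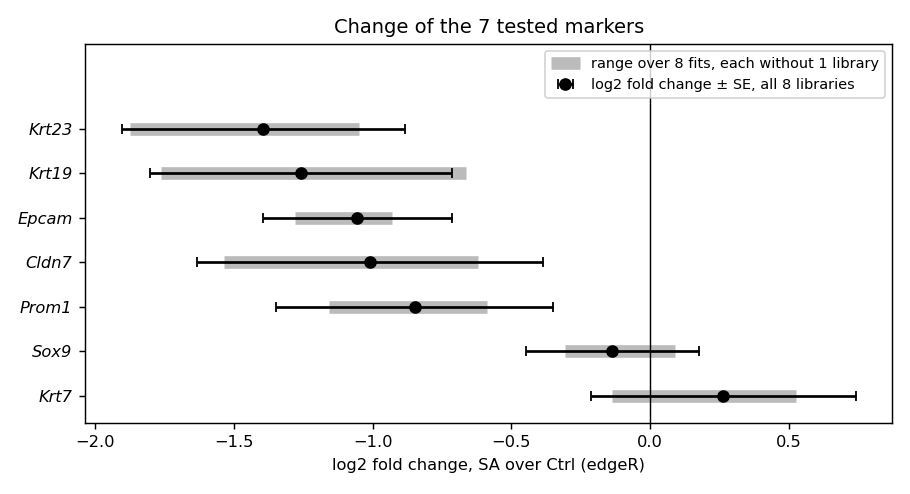
Log2 fold change of SA over Ctrl for the 7 tested markers (points, with bars for the SE of edgeR's fit) and the range of the value over 8 fits that each leave out 1 library (grey). Krt23, Krt19, Epcam, Cldn7 and Prom1 stay below 0 in all 8 of these fits, and the ranges of Sox9 and Krt7 cross 0.

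Levels of different genes were compared per kilobase of exon, with the length covered by all annotated exons of a gene in GENCODE M21. That length was 7049 bases for Krt7 and 7175 for Prom1, against 1855 for Krt19. A gene whose transcripts use only part of that length comes out too low. Per kilobase Krt23 was the highest on average, at 2.73 CPM in SA and 7.34 CPM in Ctrl. Sox9 followed at 1.17 CPM per kilobase in SA and 1.27 in Ctrl, then Epcam at 0.663 in SA and 1.37 in Ctrl and Krt19 at 0.462 in SA and 1.16 in Ctrl. Epcam, Sox9 and Krt19 changed places between libraries and cannot be put in order. Cldn7 was at 0.335 CPM per kilobase in SA and 0.672 in Ctrl. By these lengths Krt7, Prom1 and Cldn4 were the lowest. They were at 0.131, 0.119 and 0.112 CPM per kilobase in SA and 0.108, 0.211 and 0.142 in Ctrl. The places of Krt7 and Prom1 depend on the length used, and other lengths were not tested. Krt23 was the first of the 8 in 6 libraries and the next after Sox9 in SA 1 and SA 3.

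The 8 markers did not move as 1 block across the libraries. Over all 8 libraries log2 CPM of Epcam and Prom1 had a Pearson r of 0.88 and a Spearman rho of 0.90, and r was 0.93 for deviations from the group means. These were the highest values of any pair of tested markers. Within the groups Sox9 had an r of 0.73 with Epcam and 0.71 with Prom1. Krt19 and Krt23 had an r of 0.68 and a rho of 0.81, and within the groups r was 0.47. Krt23 and Epcam had an r of 0.19 and a rho of -0.07, and within the groups r was -0.61, the lowest of any pair. These values describe 8 libraries that share 2 groups and low counts, and carry no test. Ctrl 2 shows the contrast: it held the highest Krt23 level of all libraries and the lowest Krt7 and Prom1 levels.

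**Figure D4:**
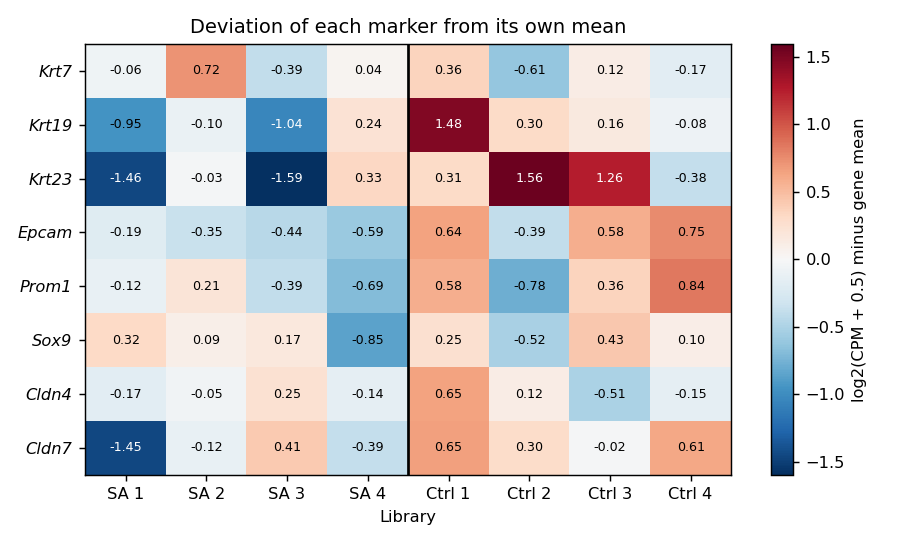
Deviation of each marker's log2(CPM + 0.5) from its mean over the 8 libraries (rows genes, columns libraries, red higher and blue lower, SA libraries left of the black line). Ctrl 1 is above the mean for all 8 genes and Ctrl 2 is high for Krt23 (1.56) and low for Epcam (-0.39), Prom1 (-0.78), Krt7 (-0.61) and Sox9 (-0.52).

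Other markers of bile duct and ductular cells were mostly at lower levels as well, with none past the threshold. Of 29 listed genes 18 were tested, 16 with a negative and 2 with a positive log2 fold change and a median of -0.40. At an unadjusted p under 0.05, 5 were lower and 1 higher (edgeR). St14, a membrane serine protease of epithelia, was at 0.805, 0.626, 1.04 and 0.723 CPM in SA 1 to 4, against 2.18, 1.17, 2.53 and 1.29 CPM in Ctrl 1 to 4. All 4 SA libraries lay below all Ctrl libraries, and the fold change in edgeR was -1.18 ± 0.37 on the log2 scale (SE, adjusted p = 0.541). Spp1, which encodes osteopontin, a protein of biliary cells and macrophages, averaged 38.1 ± 12.7 CPM in SA and 70.8 ± 41.7 CPM in Ctrl (SD, n = 4 each). The edgeR fold change was -0.89 on the log2 scale (adjusted p = 0.761). The groups overlapped, and Ctrl 2, at 28.0 CPM, was the lowest of all libraries. Krt8 and Krt18, keratins of hepatocytes as well, had log2 fold changes of -0.75 and -0.66 (adjusted p = 0.788 and 0.797). Wwc1, a regulator of the Hippo pathway, was at higher levels in SA and averaged 115.1 CPM in SA and 88.9 CPM in Ctrl, with no overlap (0.37 on the log2 scale, adjusted p = 0.621).

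The listed genes of bile secretion, transport and cilia had no such tilt as a list. Some were far more abundant than the 8 markers. Abcc3 averaged 420.7 CPM in SA and 373.3 CPM in Ctrl, and Aqp1 146.8 CPM in SA and 141.1 CPM in Ctrl. Which cells these transcripts came from was not tested, so the list need not describe bile duct cells. Of 18 listed 13 were tested, 5 negative and 8 positive, with a median of 0.10 and none at an unadjusted p under 0.05 (edgeR). Slc5a1, a sodium-glucose cotransporter, averaged 1.49 CPM in SA and 2.46 CPM in Ctrl (log2 fold change -0.72, adjusted p = 0.828), and the anion exchanger Slc4a2 averaged 25.1 CPM in SA and 20.04 CPM in Ctrl (0.33, adjusted p = 0.939). Cftr, the chloride channel of the duct surface, had too few counts to test, at 0.0671 to 0.438 CPM in SA and 0.138 to 0.646 CPM in Ctrl. Sctr, the secretin receptor, was at 0.0671 to 0.415 CPM in SA and 0.138 to 0.614 CPM in Ctrl.

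Among the pathways known to drive ductular cells, the Notch list had 16 of 20 genes tested, 10 negative and 6 positive, with a median of -0.03. At an unadjusted p under 0.05 in edgeR, 1 was lower and 1 higher. Notch1, a receptor, averaged 42.0 CPM in SA and 27.8 CPM in Ctrl (log2 fold change 0.59, adjusted p = 0.562), and Heyl, a target of the pathway, 2.41 CPM in SA and 3.73 CPM in Ctrl (-0.63, adjusted p = 0.779). The ligand Jag1 had a log2 fold change of 0.01. The YAP and TEAD list had 18 of 20 tested, 9 in each direction, with a median of 0.01. Its target Ccn2, a matricellular protein, averaged 8.13 CPM in SA and 13.8 CPM in Ctrl (-0.75, adjusted p = 0.662), while Amotl2, also a target, averaged 60.3 CPM in SA and 46.4 CPM in Ctrl (0.38, adjusted p = 0.731).

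Of the 31 listed signals and receptors of the ductular reaction 21 were tested, 14 negative and 7 positive, with a median of -0.22 and 3 lower at an unadjusted p under 0.05 (edgeR). The median was -0.01 without Ctrl 4, and with the authors' FPKM, over 13 of these genes, it was -0.07 at a pseudocount of 1 and -0.06 at 0.1. Pdgfa, a growth factor for stellate cells, was at 7.11, 7.38, 4.63 and 7.95 CPM in SA 1 to 4, against 14.2, 9.79, 9.41 and 12.7 CPM in Ctrl 1 to 4. The groups did not overlap, and the fold change in edgeR was -0.76 ± 0.22 on the log2 scale (SE, adjusted p = 0.480). The authors' FPKM values of Pdgfa gave 0.02 on the log2(FPKM + 1) scale, so its direction depends on the table. Tgfb2, a transforming growth factor, averaged 0.857 CPM in SA and 1.88 CPM in Ctrl (-1.13, adjusted p = 0.743).

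A count of 0 in all libraries does not show absence in this table. Of the 14229 genes at 0 in every library, 495 have FPKM values in the authors' other table, among them B2m at 2199 FPKM in SA and 2484 FPKM in Ctrl on average. Elf3, Krt20, Krt80 and Tspan8, epithelial genes of the bile duct list, are among those listed at 0 in the counts. The chemokine Ccl2 is listed at 0 in the counts, but the authors' FPKM were 0.672, 0.949, 1.64 and 1.36 in SA 1 to 4, against 5.74, 2.72, 12.6 and 1.59 in Ctrl 1 to 4. SA 3 lay above Ctrl 4, and the other SA libraries lay below all Ctrl libraries, a difference of -1.36 on the log2(FPKM + 1) scale (limma, adjusted p = 0.999, unadjusted p = 0.0217). Tnfsf12, the ligand TWEAK of the ductular receptor Tnfrsf12a, likewise listed at 0, had 15.7 ± 2.98 FPKM in SA and 16.2 ± 8.21 FPKM in Ctrl (SD, n = 4 each).

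Genes of neighbouring cell types were in part at lower levels in SA as well, with none past the threshold. The list of portal fibroblast and stellate cell genes had 11 of 16 tested, 10 of them negative, with a median log2 fold change of -0.79 and 6 lower at an unadjusted p under 0.05 (edgeR). It summed to 125 to 177 CPM in SA and 158 to 526 CPM in Ctrl libraries, with the highest sum in Ctrl 1, the library with the highest Krt19 level. Col1a1, a chain of collagen I, averaged 16.6 ± 5.94 CPM in SA and 68.2 ± 53.9 CPM in Ctrl (SD, n = 4 each, -2.04 on the log2 scale, adjusted p = 0.367). Col3a1, of collagen III, averaged 42.0 ± 8.94 CPM in SA and 125.7 ± 79.5 CPM in Ctrl (SD, n = 4 each, -1.58, adjusted p = 0.342). The groups overlapped for both. Ctrl 2 held 14.8 CPM of Col1a1, against 24.3 CPM in SA 1, and 50.7 CPM of Col3a1, against 55.3 CPM in SA 1. Ctrl 1 was the highest for both, at 139.8 and 232.8 CPM. Its member Lrat is listed at 0 in the counts. The mesothelial list, keratins included, had 9 of 13 tested, 5 negative and 4 positive, with a median of -0.66. The 5 negative genes were Krt8, Krt18, Krt19, Gpm6a and Wt1, and the 4 positive ones were Krt7 and markers that are not keratins. The median gene was Krt18, so this median is a keratin's value and does not describe the other markers. The 9 mesothelial markers other than keratins summed to 14.2 to 22.8 CPM in SA and 10.3 to 35.03 CPM in Ctrl libraries, lowest in Ctrl 2 and highest in Ctrl 4, the library with the highest Epcam and Prom1 levels. Of 12 listed pancreas genes 11 had at most 2 counts in any library, and only Cela1, which averaged 10.4 CPM in SA and 11.9 CPM in Ctrl, was tested. Of the 14 gut and gallbladder genes 12 were in the count table and 3 were tested, with a median of 0.06. Fabp2 of that list is at 0 in the counts, but the authors' FPKM averaged 175 in SA and 255 in Ctrl. That is a difference of -0.56 on the log2(FPKM + 1) scale (limma, adjusted p = 0.999, unadjusted p = 0.0322). Other claudins and tight junction genes, of which hepatocytes express many, had 16 of 30 tested, 7 negative and 9 positive, with a median of 0.03. The parts of fibroblasts, mesothelium and other cells in the levels of the 8 markers were not tested.

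**Figure D5:**
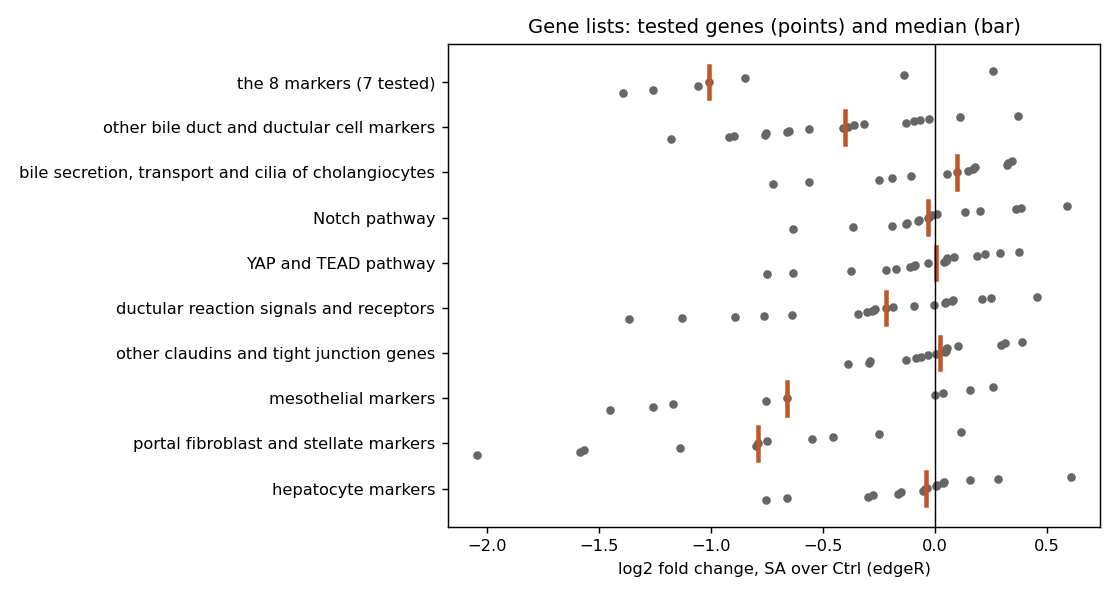
Log2 fold change of SA over Ctrl for the tested genes of 10 lists (points, ordered within a list) with each list's median (bar). The 8 markers (median -1.01) and the portal fibroblast and stellate genes (-0.79) lie lowest. The mesothelial list follows (-0.66), but it holds Krt7, Krt19, Krt8 and Krt18, and its median gene is Krt18. The secretion (0.10), Notch (-0.03), YAP and TEAD (0.01) and claudin (0.03) lists are centred near 0.

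Among 11286 other named genes with a mean of at least 1 CPM, those most like the mean log2 deviation of the 7 tested markers over the 8 libraries were taken as the 12 with the highest Pearson r. Their r was 0.91 to 0.97 and their rho 0.88 to 0.98. Without Ctrl 1 and SA 1, the libraries farthest from the median, r was 0.82 to 0.94. Adam8, a membrane metalloprotease, came first (r = 0.97) and averaged 0.579 CPM in SA and 2.36 CPM in Ctrl. Dbn1, an actin-binding protein, Plau, the urokinase plasminogen activator, Igfbp3, a binding protein of insulin-like growth factors, and Loxl2, a lysyl oxidase, were also among the 12. All 12 had negative log2 fold changes, from -2.93 for Insyn1 to -0.28 for Armc10. Choosing genes by their likeness to markers that were lower in SA favours that sign, so it is a description and supports nothing.

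Taken singly, and by a rule added after the values were seen, Krt23, Epcam and Krt19 had no gene in common among their nearest 5. Krt23 was most like Fgfbp3 (r = 0.97) and Spring1 (r = 0.95). Epcam was most like Thsd7a (r = 0.98), Ntn1 (r = 0.97) and Thbs2 (r = 0.97), of which Thbs2 encodes the matrix protein thrombospondin 2 and averaged 4.16 CPM in SA and 8.12 CPM in Ctrl. Krt19 was most like Actg1, a cytoplasmic actin (r = 0.97). Each r is over 8 libraries and was picked as the highest of 11286.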

How the data were processed

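Liver RNA was made into libraries with a NEBNext Ultra kit, per the labels' protocols, which do not call it strand-specific. HISAT2, StringTie 2.2.1 and FastQC 0.19.7 stand in the submitters' processing notes, with the builds mm10 and GRCm39 and no role for either. A counting program is not named in the sources used here. The authors deposited whole-number read counts per gene without normalization, and a second table of FPKM values computed by the authors. Libraries were matched to columns by the numbers in the labels and grouped by title, 4 SA and 4 Ctrl.

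The main test was edgeR 4.0.16's quasi-likelihood test on the counts (R 4.3.3), with TMM factors and filterByExpr, over 12358 genes, two-sided, with Benjamini-Hochberg adjustment and a threshold of 0.05. Each SE is the log2 fold change over the square root of F. The fit was tested on simulated data. CPM are counts over the library's total of tested genes times its TMM factor. Total counts were 14114145 to 28184001, and no 2 libraries agreed within sampling noise (lowest chi-square per degree of freedom 24.6). The biological coefficient of variation was 22.6%. FPKM were tested with limma 3.58.1. Correlations used log2(CPM + 0.5). The 8 genes and the lists were chosen with earlier results of these data known. From each list up to 4 tested genes with the smallest p could be named. Other genes named, such as Cftr, Sctr and Jag1, were chosen for their roles. Some listed genes are not reported here. Exon lengths are those covered by all exons of a gene in GENCODE M21, and promoters come from RefSeq (GRCm38.p6). Alternatives were DESeq2 1.42.0, limma-voom, RLE and upper quartile factors, other filters, FPKM, the mitochondrial share as a covariate, the replicate number as a block and the omission of each library.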

Additional observations from a re-analysis of the deposited data

Results flagged for a closer look

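In a group of 4 libraries, a library was singled out when its gap to the nearest other, as a share of the group's range, exceeded Dixon's 95% critical value. This held in 10 of 138 groups examined, where chance gives about 5%. Krt19 reached 4.37 CPM in Ctrl 1, with the 3 remaining Ctrl libraries at 1.15 to 1.65 CPM. The total count was 28184001 in SA 4 and 14114145 to 15922829 in the other SA libraries. Spp1 reached 56.9 CPM in SA 1, with the 3 remaining SA libraries at 29.3 to 33.5 CPM. Tgfb2 reached 3.68 CPM in Ctrl 1, with the 3 remaining Ctrl libraries at 1.09 to 1.52 CPM. Wt1 reached 1.45 CPM in SA 3, with the 3 remaining SA libraries at 0.181 to 0.375 CPM. Col3a1 reached 55.3 CPM in SA 1, with the 3 remaining SA libraries at 36.5 to 38.9 CPM. Fbln2 reached 10.2 CPM in Ctrl 1, with the 3 remaining Ctrl libraries at 4.24 to 5.03 CPM. Cela1 reached 16.4 CPM in SA 1, with the 3 remaining SA libraries at 7.59 to 8.95 CPM. Mki67 stood at 1.93 CPM in Ctrl 2, with the 3 remaining Ctrl libraries at 3.45 to 3.68 CPM. Armc10 reached 10.6 CPM in SA 2, with the 3 remaining SA libraries at 8.79 to 9.06 CPM.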

How the results depend on the processing

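None of the markers passed under any of the 19 alternatives that tested it, and of 114 log2 fold changes of the 7 markers in the main test 111 kept their sign. Cldn4 was tested by DESeq2 and without the low-count filter. With 1 library left out in turn, Krt7 ran over -0.1385 (without SA 2) to 0.5237 and Sox9 over -0.3083 to 0.0902 (without SA 4), with 0.0042 without Ctrl 3. The count of all genes called was 2 in the main test, 60 with DESeq2, 8 without the low-count filter, 1 with the mitochondrial share as a covariate and 0 (without Ctrl 4) to 19 (without SA 1) with 1 library left out. With the replicate number as a block it was 6, but nothing in the labels says that the numbers pair the libraries. In deviations from the group means, same-numbered libraries correlated at -0.24 to 0.24, and 1 of the 8 correlated best with its own number. With 4 libraries per group these values cannot settle whether the numbers pair them. Of 57 other named genes, Pdgfa turned to 0.0168, 0.0792 and 0.0168, H2-Q1 to 0.0151, 0.0185 and 0.0151 and Lgals4 to -0.4833, -0.5588 and -0.4833 with FPKM (pseudocount 1, pseudocount 0.1, no filter). With 1 library left out, 4 genes crossed 0: Lgals4 (-0.0785 to 0.2851), Cela1 (-0.4905 to 0.1320), Sox17 (-0.1282 to 0.2774) and Ptprc (-0.2370 to 0.0350). Sox17 was at -0.0303 with the mitochondrial share as a covariate. DESeq2 called 3 of the 57 genes lower that the main test did not call. They were Ccnd1 (adjusted p = 0.0202), Igfbp3 (adjusted p = 0.0106) and Insyn1 (adjusted p = 0.00283). The causes were not tested. Low counts limit Cldn4, Cldn7, Krt7, Prom1 and Krt19.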

Other observations

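Proliferation genes, a list of 10 that were all tested, had a median log2 fold change of -0.09, with 7 negative and 3 positive and 1 lower at an unadjusted p under 0.05 (edgeR). Ccnd1, which encodes cyclin D1, was at 18.04, 12.9, 17.2 and 8.82 CPM in SA 1 to 4, against 29.3, 25.1, 21.7 and 39.9 CPM in Ctrl 1 to 4. The groups did not overlap, and the fold change was -1.03 on the log2 scale (edgeR, adjusted p = 0.342). DESeq2 called it lower at -1.04 (adjusted p = 0.0202). Mki67, a marker of dividing cells, averaged 5.31 CPM in SA and 3.17 CPM in Ctrl (0.74, adjusted p = 0.904). Hnf4a, a transcription factor of hepatocyte identity, was at 527.9, 811.6, 673.7 and 720.1 CPM in SA 1 to 4, against 412.4, 399.2, 527.5 and 453.9 CPM in Ctrl 1 to 4. All SA libraries lay above all Ctrl libraries, SA 1 by the least, and the fold change was 0.61 on the log2 scale (edgeR, adjusted p = 0.425). Macrophage and leukocyte markers, 5 of 8 tested, had a median of 0.01, with Lyz2, a lysozyme of myeloid cells, at -0.54 (adjusted p = 0.662).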
